A study of Homo sapiens with 6 samples.

Results

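The RAS, RAF, MEK and ERK genes described here are NRAS, HRAS, ARAF, BRAF, MAP2K1, MAP2K2 and MAPK3. These 7 genes were taken by symbol from the 30327 genes of the deposited count table, each symbol matched 1 row, and all 7 had enough reads to be tested. Genes of these families outside the 7 and the lists given further on were not analysed here. The libraries came from SK-BR-3, an established human breast cancer cell line that overexpresses the receptor HER2. Of the 6 libraries, 3 came from cells given a nontargeting siRNA (si_NC) and 3 from cells given an siRNA directed at GRB2 (si_GRB2). The descriptions of the treated libraries name si_GRB2, whereas their titles and one passage of the study's methods name overexpression of GRB2, and the series design names a plasmid for it. The knockdown named in the descriptions and in the study's results was used here. The sources name a single siRNA sequence against GRB2, and they do not say whether the 3 libraries of a group came from separate cultures, so the p-values measure the spread between these libraries.

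GRB2 is an adaptor protein. It binds phosphorylated receptors of the HER family and carries the exchange factor SOS to the membrane, where SOS loads RAS proteins with GTP. RAS-GTP recruits the RAF kinases, which phosphorylate MEK, and MEK in turn phosphorylates ERK, which acts on cytoplasmic kinases and on transcription factors. This relay is controlled mainly by GTP loading and phosphorylation, which RNA sequencing does not measure. The values below are therefore mRNA levels.

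GRB2 itself (ENSG00000177885.15, GRCh38 chr17:75318076-75405709, minus strand) was measured first, since the labels disagree. Levels are given as CPM, the count of a gene relative to the total of its library, after scaling by edgeR's TMM factors. GRB2 had 124, 130 and 126 CPM in the si_NC libraries. In the libraries labelled si_GRB2 it had 27.8, 28.2 and 29.6 CPM. With the quasi-likelihood (QL) test of edgeR, which was used for all genes with p-values adjusted over 15801 genes, its log2 fold change was −2.15 with a standard error of 0.04 (QL-adjusted p = 3.87e-15), so these libraries follow the description and not the title. Between 24810378 and 28532480 reads were counted per library. Reads of mitochondrial genes made up 8.66% to 9.02% of the si_NC libraries and 7.59% to 7.80% of the si_GRB2 libraries, and the part of this difference in the results below was not tested. Of 8 markers of breast epithelium and of this line, 7 had enough reads, with ERBB2 at a mean of 3819 CPM over the libraries, whereas CDH1 had 9 reads in all. The summed level of the 8 markers was 19590 to 20060 CPM in si_NC and 16370 to 17050 CPM in si_GRB2, and of the 7 tested, ERBB2 was higher and the other 6 lower. In such bulk RNA, fewer cells of a type and less RNA per cell cannot be told apart. The 5 leukocyte markers summed to at most 2.67 CPM in any library, and the 6 fibroblast markers to at most 6.28 CPM. The 4 endothelial markers summed to 28.9 to 30.9 CPM in si_NC and 17.5 to 21.4 CPM in si_GRB2, most of it from CDH5, while PECAM1 and KDR had 3 reads each over all libraries. Their part in the results below was not tested.

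The 7 genes changed little when GRB2 fell. NRAS, BRAF and MAPK3 rose in si_GRB2 by 10.2%, 13.9% and 8.41%, and the differences of the other four did not pass the test. Thus 3 of 7 were higher and 0 lower at an adjusted p under 0.05, where 30.6% of the 15801 tested genes passed, 15.2% higher and 15.5% lower. At an unadjusted p under 0.05, HRAS and MAP2K1 were also higher, which made 5 of 7, and again 0 were lower. At that limit 39.4% of tested genes passed, 19.7% higher and 19.8% lower. The point estimate was above 0 for 6 of the 7, with a median log2 fold change of 0.12 against 0.0019 for all tested genes. None of the 7 reached a 1.5-fold change with an adjusted p under 0.01, which are the study's limits with its p replaced by an adjusted p. These limits were reached by 2.52% of tested genes, 0.829% higher and 1.69% lower. The values of both groups did not overlap in 5 of the 7 genes, all of them higher in si_GRB2. The groups did not overlap in 42.3% of tested genes, 21.1% higher and 21.2% lower. The absolute log2 fold change of BRAF, the largest of the 7, was above that of 61.1% of tested genes, and that of MAP2K2, the smallest, was above that of 13.5%.

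**Figure D1:**
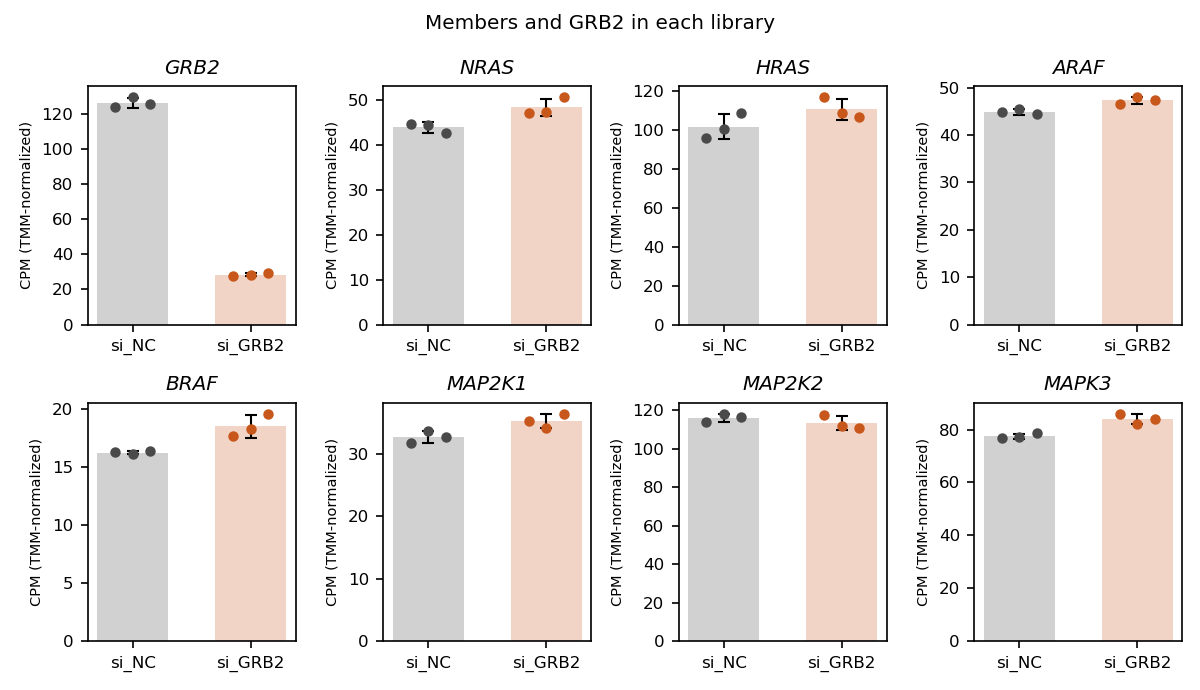
TMM-normalized CPM of GRB2 and of the 7 genes in each library (points), with the mean (bar) and SD (error bar) of the 3 si_NC and 3 si_GRB2 libraries; each axis starts at 0. GRB2 falls to between 27.8 and 29.6 CPM, while the groups of the other genes lie close together.

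RAS proteins are small GTPases at the inner face of the membrane that switch between a GDP-bound and a GTP-bound state. NRAS (ENSG00000213281.5, GRCh38 chr1:114704469-114716771, minus strand) had 44.7, 44.5 and 42.6 CPM in si_NC and 47.2, 47.4 and 50.6 CPM in si_GRB2. Every si_GRB2 library was above every si_NC library, and its replicate 3 was the highest of all 6. This gave a log2 fold change of 0.14 (standard error 0.04, 95% confidence interval 0.05 to 0.23, QL-adjusted p = 0.0219). HRAS (ENSG00000174775.18, chr11:532242-537321, minus strand) had 96.1, 100.4 and 108.7 CPM in si_NC and 116.7, 108.6 and 106.6 CPM in si_GRB2. The groups overlapped, because replicate 3 of si_NC was above replicates 2 and 3 of si_GRB2. HRAS had a log2 fold change of 0.12 (standard error 0.05, 95% confidence interval 0.02 to 0.22) and did not pass the test (QL-adjusted p = 0.055). Without replicate 3 of si_NC it was 0.17 and passed (QL-adjusted p = 0.00672). It did not pass when any other single library was left out (log2 fold changes of 0.07 to 0.15, QL-adjusted p from 0.0514 to 0.278).

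RAF kinases bind RAS-GTP and phosphorylate MEK. BRAF (ENSG00000157764.14, chr7:140719327-140924929, minus strand) is the RAF protein with the highest basal activity. It had 16.3, 16.1 and 16.4 CPM in si_NC, a range narrower than in any other of the 7 genes, and 17.7, 18.3 and 19.6 CPM in si_GRB2. All si_GRB2 libraries were thus higher, with a log2 fold change of 0.19 (standard error 0.06, 95% confidence interval 0.06 to 0.32, QL-adjusted p = 0.0283). NDUFB2, a subunit gene of respiratory complex I, overlaps BRAF by 3464 bases on the opposite strand and its reads came to 768% of those of BRAF. The study describes a library preparation that keeps strand. Whether the counting used strand is not given in the sources used here, and without it reads from the overlap could not be told apart. NDUFB2 fell by 0.11 on the log2 scale (QL-adjusted p = 0.0259), opposite to BRAF. ARAF (ENSG00000078061.14, chrX:47561205-47571908, plus strand), a weaker MEK kinase of the same family, had 44.7, 45.5 and 44.4 CPM in si_NC and 46.6, 47.9 and 47.3 CPM in si_GRB2. The groups did not overlap, yet the log2 fold change of 0.07 did not pass (standard error 0.04, 95% confidence interval −0.0089 to 0.16, QL-adjusted p = 0.175).

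MEK1 and MEK2, encoded by MAP2K1 and MAP2K2, are dual-specificity kinases whose known substrates are the ERK proteins. MAP2K1 (ENSG00000169032.10, chr15:66386837-66491656, plus strand) had 31.8, 33.7 and 32.8 CPM in si_NC and 35.2, 34.2 and 36.5 CPM in si_GRB2. Here too the groups did not overlap and the log2 fold change of 0.11 did not pass (standard error 0.05, 95% confidence interval 0.0093 to 0.21, QL-adjusted p = 0.0936). SNAPC5 overlaps MAP2K1 by 1522 bases on the opposite strand, with reads equal to 65.7% of those of MAP2K1. MAP2K2 (ENSG00000126934.14, chr19:4090321-4124122, minus strand) was the only one of the 7 with a negative estimate. It had 113.7, 117.8 and 116.4 CPM in si_NC and 117.2, 111.8 and 110.9 CPM in si_GRB2, and the groups overlapped. The log2 fold change was −0.03 (standard error 0.03, QL-adjusted p = 0.511), with a 95% confidence interval from −0.10 to 0.04. As a percentage this interval runs from −7.01% to 2.66%. Its sign was positive, and again short of the test, with limma on FPKM and with total counts as scaling, where the log2 fold changes were 0.0093 to 0.02.

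MAPK3 (ENSG00000102882.12, chr16:30114105-30123506, minus strand) encodes ERK1, the kinase at the end of the cascade. It had 76.7, 77.1 and 78.7 CPM in si_NC and 85.9, 82.2 and 83.9 CPM in si_GRB2. The lowest si_GRB2 library was above the highest si_NC library. The log2 fold change was 0.12 (standard error 0.04, 95% confidence interval 0.04 to 0.19, QL-adjusted p = 0.0188), the lowest adjusted p of the 7 genes. No other gene of the annotation overlaps NRAS, MAP2K2 or MAPK3.

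None of the 3 calls held in every fit with a single library left out. Such fits have fewer libraries, and the share of all tested genes that passed fell from 30.6% to between 23.4% and 27.5%. How far the lost calls follow from the smaller number of libraries was not tested. NRAS no longer passed without replicate 2 or 3 of si_NC or without replicate 3 of si_GRB2 (log2 fold changes of 0.14, 0.11 and 0.11, adjusted p from 0.0533 to 0.0999, edgeR). MAPK3 no longer passed without replicate 1 or 2 of si_NC or without replicate 1 of si_GRB2 (0.10, 0.11 and 0.10, adjusted p from 0.07 to 0.0848, edgeR). BRAF passed only without replicate 1 of si_GRB2, and the other 5 fits gave log2 fold changes of 0.15 to 0.20 (adjusted p from 0.0581 to 0.12, edgeR). With DESeq2, MAPK3 alone passed (adjusted p = 0.0378), next to NRAS at 0.0623 and BRAF at 0.122. The scaling mattered as well. With total counts in place of TMM factors, a choice made after seeing the data, 6 of the 7 genes were higher at an adjusted p under 0.05 in edgeR, and the median log2 fold change of all tested genes moved from 0.0019 to 0.05. The share of calls that were higher moved from 49.5% to 66.5% under that scaling. A change of scaling moves all genes by nearly the same amount. Relative to that median, the 7 genes therefore kept nearly the same changes by arithmetic, which is no check on their rise.

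**Figure D2:**
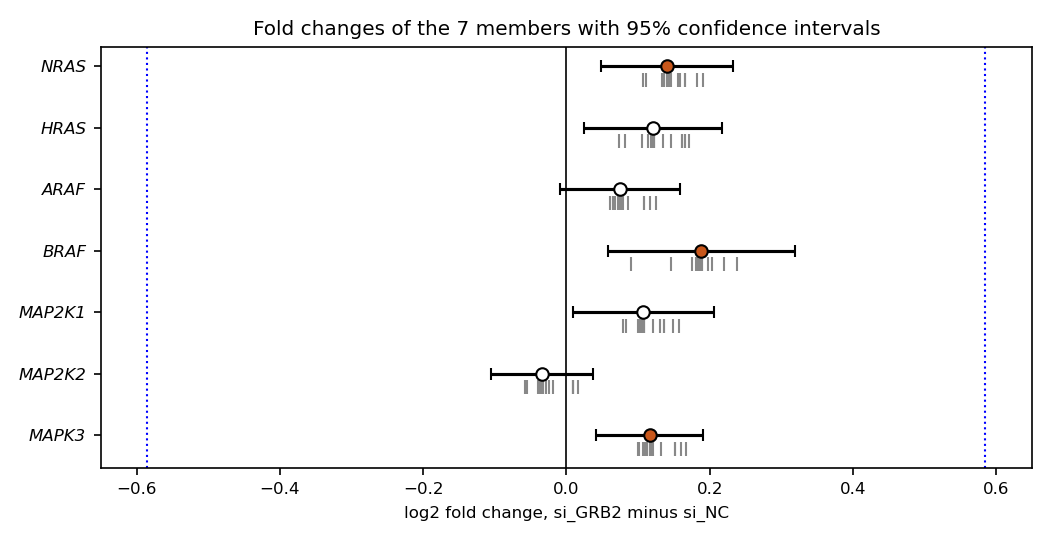
Log2 fold changes (si_GRB2 minus si_NC) of the 7 genes with 95% confidence intervals from edgeR; filled points passed at an adjusted p under 0.05, grey ticks are the same value under each alternative, and dotted lines mark a 1.5-fold change. All intervals lie within the dotted lines, and the interval of BRAF is the widest.

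The start regions of NRAS and MAPK3, which rose, and of MAP2K2, which did not pass, are shown side by side. In all 3 the RefSeq start site is also the start of the MANE Select transcript, the agreed reference transcript of a gene. The lines give bases before that start site on GRCh38.p14 from RefSeq, 5′ to 3′, without bases in any annotated untranslated region. Capitals mark the motifs searched, on either strand.
NRAS, chr1:114716772-114716912, minus strand: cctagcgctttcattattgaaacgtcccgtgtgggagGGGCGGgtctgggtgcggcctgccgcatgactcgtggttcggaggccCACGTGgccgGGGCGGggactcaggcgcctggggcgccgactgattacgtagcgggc
MAPK3, chr16:30123310-30123470, minus strand: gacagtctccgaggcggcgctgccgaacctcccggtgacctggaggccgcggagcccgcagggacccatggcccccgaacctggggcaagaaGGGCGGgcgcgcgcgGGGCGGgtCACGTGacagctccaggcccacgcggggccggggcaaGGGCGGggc
MAP2K2, chr19:4124123-4124372, minus strand: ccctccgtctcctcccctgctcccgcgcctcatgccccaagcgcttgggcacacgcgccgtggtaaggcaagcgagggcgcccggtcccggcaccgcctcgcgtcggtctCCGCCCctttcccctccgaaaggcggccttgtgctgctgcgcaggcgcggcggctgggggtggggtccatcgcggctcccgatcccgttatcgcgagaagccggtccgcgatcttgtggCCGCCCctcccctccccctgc
The motifs were the GC box GGGCGG, the CCAAT box, the TATA box TATAAA, the E-box CACGTG and the ETS core CCGGAA. Each was counted on both strands, overlapping matches included, in whole windows from 250 bases before to 50 after the start, so part of the matches lies outside the printed stretches. The GC box occurred 3 times in the window of NRAS, 8 times in that of MAPK3 and 2 times in that of MAP2K2, and 45.0% of all 35116 promoter windows hold it. The E-box occurred 1 time each in NRAS and MAPK3 and 0 times in the windows of the other 5 genes, among them BRAF, which also rose. It is held by 7.3% of all windows. The ETS core, bound by ETS factors, some of which ERK phosphorylates, occurred 2 times in NRAS, 1 time each in HRAS and ARAF and 0 times in MAPK3, BRAF, MAP2K1 and MAP2K2, against 17.2% of all windows. None of the windows of the 7 genes held TATAAA, which 11.5% of all windows hold. The window of HRAS held 5 GC boxes, that of MAP2K1 at its MANE Select start 3, and those of ARAF and BRAF 0. The CCAAT box, in 34.6% of all windows, occurred 2 times each in ARAF and BRAF, 1 time each in HRAS and MAP2K1 and 0 times in the other 3. The RefSeq start of BRAF lies 661 bases from its MANE Select start. These matches describe the letters of each window only.

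Levels of different genes were compared per length, in the authors' FPKM. In the si_NC libraries, HRAS was the highest at 33.6 ± 3.37 FPKM (SD, n = 3). MAP2K2 followed with 17.8 ± 0.835 and MAPK3 with 17.0 ± 0.845 FPKM (SD, n = 3 each), and the values of these neighbours in the order overlapped. ARAF had 10.6 ± 0.328, MAP2K1 8.86 ± 0.46 and NRAS 8.15 ± 0.0945 FPKM (SD, n = 3 each), and the libraries of these 3 genes did not overlap. BRAF was the lowest at 0.557 ± 0.0208 FPKM (SD, n = 3), 14.6 times below NRAS. In si_GRB2 the means were 37.6 for HRAS, 19.0 for MAPK3, 17.9 for MAP2K2, 11.5 for ARAF, 9.83 for MAP2K1, 9.26 for NRAS and 0.657 FPKM for BRAF. MAPK3 stood above MAP2K2 in all 3 of these libraries, with 18.8 to 19.1 against 17.7 to 18.1 FPKM, while MAP2K1 and NRAS now overlapped.

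The low FPKM of BRAF depended on the length by which its reads were divided. From the ratio of CPM to FPKM, set to the 4326 bases of NRAS, the authors' values imply a length of 23429 bases for BRAF, close to the 23433 bases of all its annotated exons merged. Its MANE Select transcript has 6459 bases. Per kilobase of the MANE Select transcript, a measure added after the data were seen, BRAF had a mean of 2.52 CPM in si_NC and NRAS 10.2, so NRAS was 4.03 times as high. The order of all 7 genes stayed the same on that measure, from 95.1 CPM per kilobase for HRAS and 67.2 for MAP2K2 down to BRAF. For MAP2K2 the implied length of 5225 bases also differed from its transcript of 1727 bases, and HRAS was 1.89 times as high as MAP2K2 in FPKM. Distances between genes in FPKM thus carry the annotation used, whereas changes of 1 gene between groups do not.

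**Figure D3:**
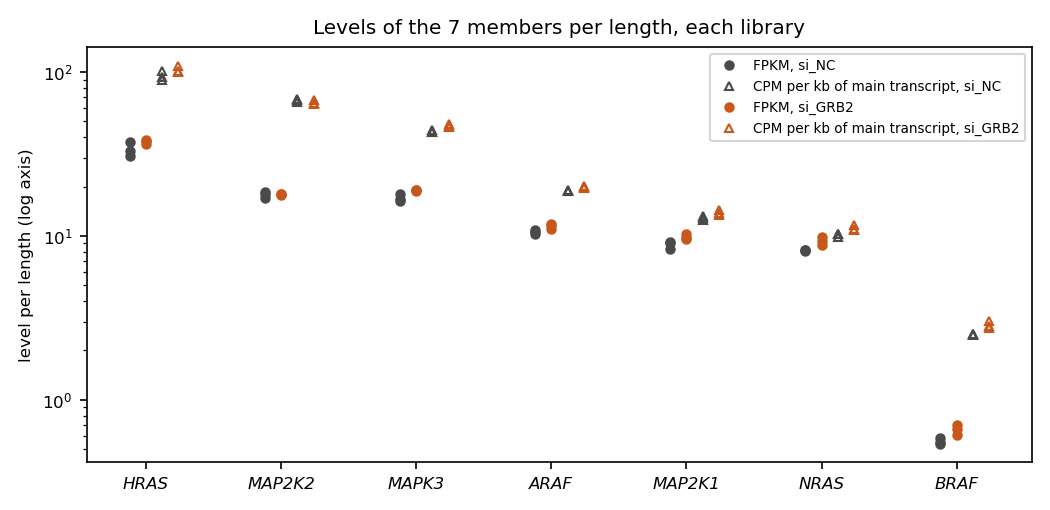
Levels of the 7 genes in each library on a log axis, as the authors' FPKM (filled circles) and as CPM per kilobase of the MANE Select transcript (open triangles), ordered from high to low. HRAS is highest and BRAF lowest on both measures, and BRAF lies nearer to the other genes on the second.

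Related members can be set against each other within a library, which removes the scaling between libraries. The ratio of MAP2K2 to MAP2K1 in FPKM was 2.03, 1.99 and 2.02 in si_NC and 1.89, 1.86 and 1.73 in si_GRB2. Every si_GRB2 library was lower, and the means were 2.01 ± 0.0215 and 1.83 ± 0.0862 (SD, n = 3 each). The log2 ratio differed by −0.14 (two-sided exact permutation p = 0.1, as low as 3 against 3 libraries can reach, and 0.15 after adjustment over the 3 pairs). The ratio of ARAF to BRAF was 18.9, 19.3 and 18.8 in si_NC and 18.0, 18.0 and 16.6 in si_GRB2, again without overlap. Its log2 ratio differed by −0.12 (exact permutation test, two-sided p = 0.1, adjusted p = 0.15). The ratio of HRAS to NRAS was 3.82, 4.01 and 4.54 in si_NC and 4.40, 4.07 and 3.74 in si_GRB2, and the groups overlapped. Its log2 ratio differed by −0.02 (exact permutation test, two-sided p = 0.8, adjusted p = 0.8), and leaving out single libraries moved that difference between −0.08 and 0.05. An exact permutation of 3 against 3 libraries cannot give a p under 0.05 for any of the pairs.

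**Figure D4:**
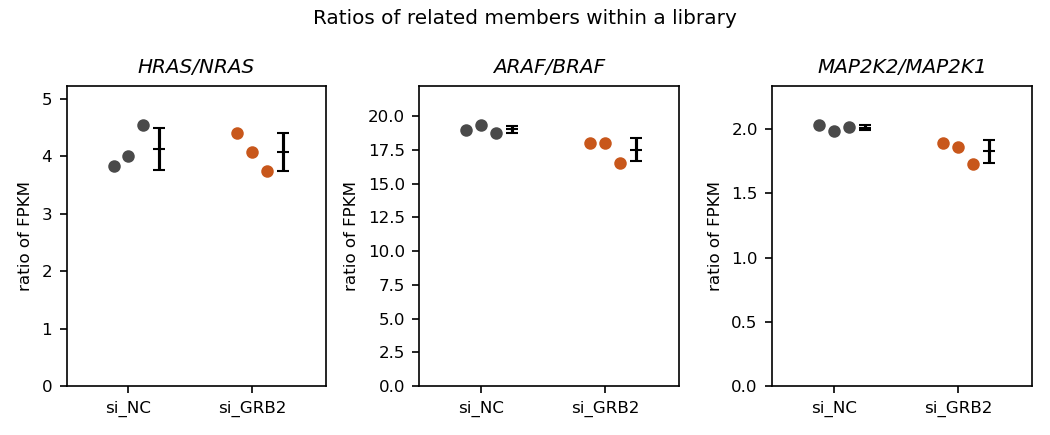
Ratio of FPKM of related members within each library (points), with mean and SD (bars) of the 3 libraries of each group; axes start at 0. The ratios of ARAF to BRAF and of MAP2K2 to MAP2K1 are lower in every si_GRB2 library than in every si_NC library, and those of HRAS to NRAS overlap.

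Similar sequence can place reads of related genes on the wrong member. The coding sequences of HRAS and NRAS both have 570 bases, of which 73.0% are identical, and the longest run shared by their MANE Select transcripts is 14 bases. ARAF and BRAF have 64.3% identical bases among 1792 aligned and a longest shared run of 21 bases. MAP2K1 and MAP2K2 are the closest pair, with 74.6% identical bases among 1179 aligned and a longest shared run of 38 bases.

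Genes around the cascade were taken from lists. Of all tested genes, 15.2% were higher and 15.5% lower at an adjusted p under 0.05, or 30.6% either way. The share passing was 33.3% of exchange factors, 41.7% of GTPase-activating and SPRED proteins, 46.2% of RAS-related GTPases and 27.3% of RAS processing genes. It was 50% of scaffolds and regulators, 31.3% of the other MAP kinases, 43.8% of genes listed downstream of ERK and 66.7% of MEK output transcripts. Upstream of RAS, SOS1, the exchange factor that GRB2 carries, rose by 0.15 on the log2 scale (standard error 0.04, QL-adjusted p = 0.0138), from a mean of 59.2 to 65.7 CPM. Its relative SOS2 had 21.9 and 22.8 CPM, and of 8 exchange factors 3 had enough reads, 1 of them higher and 0 lower. SOS1 lost its call without replicate 2 of si_NC and without replicate 2 or 3 of si_GRB2, where its log2 fold change was at least 0.12. Of 13 RAS GTPase-activating proteins and SPRED proteins, which switch RAS off or help to do so, 12 were tested, 2 were higher and 3 lower. RASA3 rose by 0.38 on the log2 scale, from 50.8 to 66.2 CPM, whereas SPRED1 fell by 0.62 (7.50 to 4.89 CPM) and SPRED2 fell by 0.43 (20.6 to 15.4 CPM), each with a QL-adjusted p of 0.000326 or less. NF1, the GTPase-activating protein that SPRED proteins bring to the membrane, fell by 0.22 (QL-adjusted p = 0.0038). RASAL1, the remaining gene of this list that passed, rose by 0.35 (QL-adjusted p = 0.00687). Both were named after their values were seen.

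Among 13 tested RAS-related GTPases, 5 were higher and 1 lower, or 2 lower without replicate 3 of si_NC. RIT1 rose from 36.5 to 51.4 CPM (log2 fold change 0.49) and RAP2C from 17.3 to 22.8 CPM (0.40). RAP2B, which the study names as differentially expressed in these libraries, fell from 36.5 to 20.1 CPM (−0.86), so its fall is not independent evidence. Among 11 genes listed for RAS processing and trafficking, 2 were higher and 1 lower. ICMT, which methylates the prenylated end of RAS, rose from 220.2 to 248.9 CPM (0.18), and ZDHHC9, which palmitoylates HRAS and NRAS, rose from 80.0 to 89.1 CPM (0.15). LYPLA1, a thioesterase that removes palmitate and that the study also names, fell from 112 to 65.5 CPM (−0.77). ZDHHC9 had the highest QL-adjusted p of these 6 genes, 0.00496.

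Of 26 tested scaffolds and regulators of RAF, MEK and ERK, 8 were higher and 5 lower, with a median log2 fold change of −0.01. PAQR3, a Golgi protein that holds RAF away from the membrane, rose from 12.9 to 15.4 CPM (0.26, QL-adjusted p = 0.00836). The 14-3-3 genes SFN and YWHAH, whose proteins bind phosphorylated RAF and other partners, fell from 74.7 to 59.7 CPM (−0.32) and from 98.9 to 85.2 CPM (−0.21), each with a QL-adjusted p of 0.000167 or less. Leaving out single libraries gave 3 to 7 higher and 5 lower genes in this list, the 3 being without replicate 3 of si_NC and without replicate 2 of si_GRB2. Of 16 MAP kinases and MAP2 kinases of the other cascades, 3 were higher and 2 lower. MAPK6, which encodes the atypical kinase ERK3, rose from 25.2 to 41.5 CPM (0.72, QL-adjusted p = 1.51e-07), past the 1.5-fold limit. MAP2K4, a kinase of JNK, rose from 29.1 to 35.0 CPM (0.27, QL-adjusted p = 0.000458), while MAPK8, which encodes JNK1, fell from 20.7 to 17.8 CPM (−0.21, QL-adjusted p = 0.0155). MAPK8 passed in 8 of 16 alternatives, and it was lost with DESeq2, limma and total counts and without replicate 2 of si_NC or replicate 1 or 3 of si_GRB2, where its sign stayed negative. The count of lower genes in this list was 1 without replicate 1 or 2 of either group, and 3 without replicate 3 of si_NC.

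Downstream of ERK, 16 listed kinases and factors were tested, and 5 were higher and 2 lower. MKNK2, a kinase of the cap-binding protein eIF4E, rose from 87.8 to 123.6 CPM (0.49) and ELK4 from 33.5 to 41.1 CPM (0.29), whereas ELK3 fell from 8.64 to 6.34 CPM (−0.45). ELK3 and ELK4 are ETS factors that act with serum response factor. ELK3 had the highest QL-adjusted p of the 3, 0.00244.

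Of the lists of genes around the cascade, the transcripts used as a readout of MEK output had the lowest median. Of 10 such genes, 9 were tested, and 6 were lower and 0 higher in si_GRB2, with a median log2 fold change of −0.75. Over all tested genes, 15.5% were lower and 15.2% higher, with a median of 0.0019. DUSP4, a phosphatase of ERK, fell from 73.9 to 39.1 CPM (−0.92, QL-adjusted p = 1.37e-10). CCND1, which encodes cyclin D1, fell from 278 to 154 CPM (−0.85, QL-adjusted p = 5.94e-12), and it is a gene the study chose on these libraries. EPHA2, a receptor tyrosine kinase, fell from 30.9 to 28.2 CPM (−0.13, QL-adjusted p = 0.0417). PHLDA1, SPRY4 and ETV4, at means of 2.24 to 4.51 CPM, were the other lower genes, named after their values were seen, with log2 fold changes of −1.18, −0.82 and −0.75. DUSP6, SPRY2 and EPHA4 had 0.825 to 1.95 CPM and did not pass, and ETV5 had 9 reads in all. The count of lower genes was 4 to 6 when single libraries were left out, and EPHA2 passed in 4 of 16 alternatives. In the same libraries the largest point estimate of the 7 genes was 13.9%, for BRAF, whose confidence interval reached 24.7%. DUSP4 and CCND1 fell by more than 0.8 on the log2 scale. EPHA2, also above 5 CPM, changed by −0.13, which was smaller in size than the 0.19 of BRAF. A difference between these lists was not tested.

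**Figure D5:**
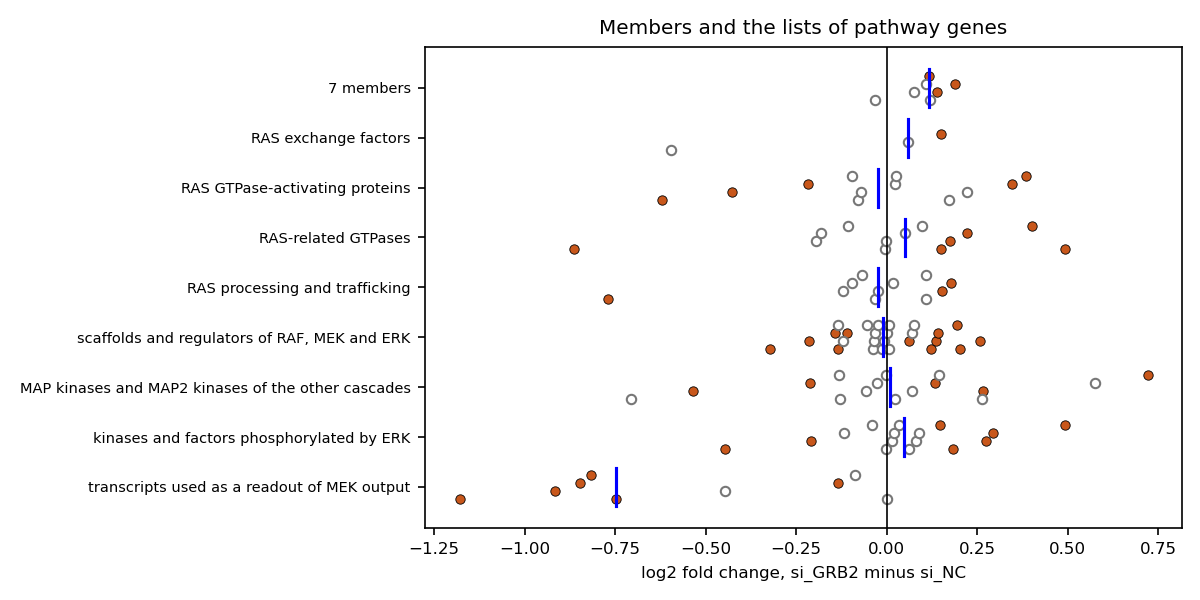
Log2 fold changes (si_GRB2 minus si_NC) of every tested gene of the 7 members and of each list; filled points passed at an adjusted p under 0.05 in edgeR and blue bars are medians. The members lie between −0.03 and 0.19, and 5 of the MEK output transcripts lie between −1.18 and −0.75.

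For each of the 7 genes, the genes whose log2 CPM followed it most closely over the 6 libraries were listed among 10623 others with a mean of at least 5 CPM. The highest Pearson r was 0.998 for NRAS with UBQLN1, 0.991 for HRAS with IRF2BPL, 0.998 for ARAF with MRPS35, 0.997 for BRAF with NAA25, 0.995 for MAP2K1 with UPF2, 0.989 for MAP2K2 with RNH1 and 0.994 for MAPK3 with RP11-29H23.5. Over only 6 points in 2 groups that share depth and scaling, between 16 genes for MAP2K2 and 301 for ARAF had an r above 0.95, so these are descriptions of pattern only.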

How the data were processed

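RNA-seq of SK-BR-3 cells gave 6 libraries, grouped by their descriptions. The authors trimmed reads with FASTX-Toolkit, aligned them to GRCh38 with HISAT2 allowing 4 mismatches, and deposited the count of uniquely mapped reads per gene without normalization. The authors also deposited FPKM, rounded, whose scaling total is not given in the sources used here. The study's library preparation keeps strand. The counting tool, the annotation release and whether the counting used strand are likewise not given in the sources used here. Counts were scaled by TMM in edgeR 4.0.16 under R 4.3.3. After filterByExpr, 15801 genes remained, and si_GRB2 was tested against si_NC by quasi-likelihood (QL), with p-values adjusted by Benjamini-Hochberg over these genes. A gene passed at an adjusted p under 0.05. The study's limits (1.5-fold, with an adjusted p under 0.01 in place of its p) were a second rule. Standard errors are the estimate over the square root of F, and confidence intervals use the fit's degrees of freedom. The test was checked on simulated counts. Among changed genes of at least 5 CPM, it found 100% of 67 1.5-fold changes and 68.4% of 79 1.2-fold changes. Smaller changes, such as those of the 7 genes, were not simulated. Per library, the 7 genes had 410 to 3265 reads. Positions come from GENCODE 44, in which 99.7% of gene identifiers were found, and 83.4% with the same version. RefSeq promoter windows matched all 7 genes.

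The 7 genes, the lists and the tests were chosen with earlier results of these data known. Named genes are the 7 genes, GRB2, up to 3 genes per list with the largest absolute change among those that passed with a mean of at least 5 CPM, overlapping genes, and the 3 most alike genes per member, of which the first is printed. Pseudogenes of the 7 genes were not found among the counted symbols. Alternatives tried were DESeq2 1.42.0, DESeq2 size factors in edgeR, 2 other filters, a robust fit, a replicate block, limma 3.58.1 on log2(FPKM + 1) or log2(FPKM + 0.1), a filter on FPKM, and each library left out. Libraries of a group differed by more than sampling noise (chi-square per degree of freedom 1.97 to 4.23). Python 3.11.15 with pandas 2.3.3, Biopython 1.88 and matplotlib 3.10.9 made tables and figures.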

Additional observations from a re-analysis of the deposited data

How the results depend on the processing

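GRB2 stayed past the threshold under all 16 alternatives, with log2 fold changes from −2.18 to −1.91, and 6 of the 7 genes kept their sign in every alternative that tested them. MAP2K2 turned positive with limma on log2(FPKM + 1) at 0.0093, also with the filter of a mean FPKM of at least 1, with limma on log2(FPKM + 0.1) at 0.0098, and with total counts at 0.017, all short of the threshold. Of the 3 genes that rose, MAPK3 passed in 11 of 16 alternatives, NRAS in 10 of 16 and BRAF in 6 of 15, since the FPKM of BRAF was under the limit of 1. The number of higher members was 3. It was 1 with DESeq2, 0 with limma on log2(FPKM + 1) and on log2(FPKM + 0.1), 6 with total counts, a scaling added after the data were seen, and 0 to 2 with single libraries left out. No member was lower, and none passed the 1.5-fold limit, in any of these fits. The cause of these moves was not tested.

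Over all genes, limma on log2(FPKM + 1) gave 834 higher and 566 lower genes at an adjusted p under 0.05 and 79 past the 1.5-fold limit, where edgeR gave 2396, 2442 and 398. With the pseudocount of 0.1 the numbers were 927, 607 and 144. With the filter on FPKM, 987 were lower and 96 passed the limit, and 63.3% of its calls were higher. With single libraries left out, 1809 to 2168 were higher, 1965 to 2324 lower and 321 to 420 past the limit.

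Replicate numbers are shared between groups, but the deviations of same-numbered libraries had correlations of 0.23, −0.095 and 0.08, so the numbers were not taken to pair them, and 3 of the 6 libraries correlated best with their own number. With a replicate block, HRAS joined the higher members (log2 fold change 0.12, adjusted p = 0.0334, edgeR), which gave 4. The mean paired differences of the log2 ratios, −0.02, −0.12 and −0.14, equal the unpaired differences by arithmetic. They are therefore no check on pairing. Leaving out single libraries moved the log2 ratio of ARAF to BRAF between −0.14 and −0.08 and that of MAP2K2 to MAP2K1 between −0.17 and −0.10. At 410 to 502 reads per library, BRAF had the largest standard error of the 7 genes.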
